A study of Mus musculus with 2 samples.

Results

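Laminin and integrin genes were described across the cell classes and glial states of cultured mouse dorsal root ganglia (DRGs). They were taken by name: a gene was included when its symbol is that of a laminin chain (Lama, Lamb or Lamc with a number of 1 to 5), of an integrin alpha subunit (Itga) or of an integrin beta subunit (Itgb1 to Itgb8). This gave 37 of the 31053 genes in the deposited count tables, namely 11 laminin chains, 18 integrin alpha subunits and 8 integrin beta subunits.

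Laminins are large secreted glycoproteins of the basement membrane, each put together from an alpha, a beta and a gamma chain. Integrins are transmembrane receptors made of an alpha and a beta subunit, which link laminins, collagens, fibronectin and proteins on other cells to the actin cytoskeleton. In peripheral nerve, Schwann cells lay down their own laminin-rich basement membrane, and they need laminins and beta 1 integrins to sort and myelinate axons, while satellite glial cells wrap the cell bodies of sensory neurons inside a basement membrane of their own.

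Both libraries, A and B, are of a single condition. DRGs of SWISS mice aged 2 weeks, of both sexes by the methods, were taken from cervical, thoracic and lumbar levels, digested with collagenase and dispase, plated on a coat of laminin protein, kept for 3 days in medium with horse serum, and detached with trypsin. A and B were run on the same 10X chip with the 3' v3 kit, and no source used here says whether they came from separate mice or cultures. Every p-value below rests on how far the differences between cell groups vary between A and B, and that variation may be technical.

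The files held 5175 barcodes and 40355401 UMIs (molecular tags that let each captured transcript be counted once) for A, and 5773 barcodes and 38945848 UMIs for B. Of 10948 cells, 10730 had 200 or more genes with no more than 10% of UMIs from mitochondrial genes and were used, and 8 barcode sequences occurred in both libraries. Clusters drawn without the laminin and integrin genes were named from marker lists as 9443 glia-like, 811 neuron-like, 394 fibroblast-like and 82 macrophage-like cells, called glia, neurons, fibroblasts and macrophages from here on. The defining markers stood in these classes, with Sox10 at 219 CPM (UMIs scaled to a total of 1000000 per library and group, mean of A and B) in glia, Tubb3 at 2288 CPM in neurons, Dcn at 4945 CPM in fibroblasts and Lyz2 at 13690.1 CPM in macrophages. Endothelial cells did not form a class: their 8 markers summed to between 9.23 CPM in macrophages and 92.7 CPM in fibroblasts. The median cell had 4723 UMIs in glia, 28332 in neurons, 11494 in fibroblasts and 8935 in macrophages, and doublets were not removed.

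Re-clustering the glia alone, again without the laminin and integrin genes, gave 5 clusters. Cluster 0 (3455 cells) was the non-dividing cluster with the highest mean of the satellite glia list, being the highest of the 5 clusters for 6 of its 10 genes, and is called satellite-like. Cluster 2 (2036 cells) was the non-dividing cluster with the highest mean of the repair Schwann list, being the highest for 6 of its 10 genes, and is called repair-like. It was also the highest for 4 of 9 myelinating Schwann genes, and its leading genes were Tgfbi, Igfbp5, Atf3 and Hmga2. Clusters 1 (2307 cells), 3 (1033 cells) and 4 (612 cells) are called dividing, because their DNA replication and mitosis genes summed to 1000 CPM or more. Cluster 1 was led by histone genes, cluster 3 by DNA replication genes such as Mcm3 and cluster 4 by mitosis genes such as Cenpf and Ccnb1. Clusters and classes were drawn from the same cells that are compared, and genes that move with the clustering genes differ between them for that reason, so the p-values below describe the groups as drawn.

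Of the 37 genes, 20 reached 20 CPM in both libraries in at least 1 class or glial cluster: 5 of 11 laminin chains, 9 of 18 alpha subunits and 6 of 8 beta subunits. Taking the class with the highest mean CPM for each, 13 of these 20 were highest in glia, 1 in neurons, 2 in fibroblasts and 4 in macrophages. The other 17 stayed under that level, and Itgad, which pairs with Itgb2 in leukocytes, had 0 UMIs in all cells. CPM here are counts of 3' ends, and a level is compared between cell groups and not between genes. The tests below also scale counts between groups, so they can order classes with close CPM differently.

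Of the 5 laminin chains above 20 CPM, 4 were highest in glia by CPM. These are chains of the endoneurial laminins, with Lama2 and Lama4 as alpha chains, Lamb1 as beta chain and Lamc1 as gamma chain. Glia also expressed Lamb2, which is described below. Lamb1, the common beta chain, was at 543 and 539 CPM in A and B in glia, against 245 and 254 in fibroblasts, 135 and 87.4 in macrophages and 37.0 and 46.0 in neurons. Lamc1, the gamma chain of most laminins, was at 411 and 392 CPM in glia, against 191 and 206 in fibroblasts, 124 and 69.5 in macrophages and 41.1 and 45.7 in neurons. For both chains the classes did not overlap, in the order glia, fibroblasts, macrophages, neurons. In edgeR's quasi-likelihood test of each class against the mean of the other classes, with Benjamini-Hochberg adjustment over all 11797 genes tested, the log2 fold change in glia was 1.94 ± 0.06 for Lamb1 (adjusted p = 8.10e-61) and 1.66 ± 0.06 for Lamc1 (adjusted p = 5.61e-53).

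The alpha chains divided glia from fibroblasts unequally. Lama4, the alpha chain of laminin-411, was at 421 and 409.9 CPM in A and B in glia, against 89.3 and 109 in fibroblasts, 109 and 51.5 in macrophages and 25.0 and 32.0 in neurons. Glia lay 4.18 times above fibroblasts, the next class, while fibroblasts and macrophages overlapped. Lama2, the alpha chain of laminin-211, whose loss in humans and mice causes muscular dystrophy with a peripheral neuropathy, was at 216 and 206 CPM in glia, against 169 and 197 in fibroblasts, 66.6 and 17.9 in macrophages and 11.6 and 17.3 in neurons. In CPM its level in glia was 1.15 times that in fibroblasts, although the libraries of these classes did not overlap. The tests that follow also scale between classes and gave Lama2 a larger fold change in fibroblasts than in glia. This order thus depends on the scaling. Against the mean of the other classes, the log2 fold change in glia was 2.34 ± 0.06 for Lama4 (adjusted p = 7.79e-66, edgeR) and 1.71 ± 0.08 for Lama2 (adjusted p = 2.22e-41). In fibroblasts it was 2.01 ± 0.10 for Lama2 (adjusted p = 7.68e-38) and 0.16 ± 0.11 for Lama4 (adjusted p = 0.2396), so that only Lama2 of the pair passed there. Lama4 passed as well when at most 5% mitochondrial UMIs were allowed.

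Fibroblasts held the highest level of Lamb2, the beta chain best known from the neuromuscular synapse and the glomerulus, at 39.7 and 51.4 CPM in A and B, against 27.9 and 26.1 in glia, 14.3 and 6.72 in macrophages and 5.08 and 4.71 in neurons. Its log2 fold change in fibroblasts against the mean of the other classes was 2.18 ± 0.18 (adjusted p = 9.39e-22, edgeR). Below 20 CPM, Lama1, the alpha chain of embryonic laminin, had 53 UMIs in fibroblasts against 2 in glia, 4 in neurons and 1 in macrophages, and Lamc3 had all its 24 UMIs in fibroblasts. Such genes pass the filter on low counts through the class where they are high, so no test is given for them. Lama5, the alpha chain of adult epithelial and vascular basement membranes, was at 6.97 and 6.85 CPM in glia, against 4.67 and 3.70 in fibroblasts, 2.38 and 2.24 in macrophages and 1.29 and 0.986 in neurons. Lama3 and Lamb3, chains of epidermal laminin, were near 0 in glia, with 3 and 1 UMIs. Neurons held 92 of the 94 UMIs of Lamb3. Of Lama3, neurons held 45 of 51 UMIs, 2.15 and 2.19 CPM in A and B, while the 3 UMIs in the shallower macrophages stand for 2.38 and 4.48 CPM.

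**Figure D1:**
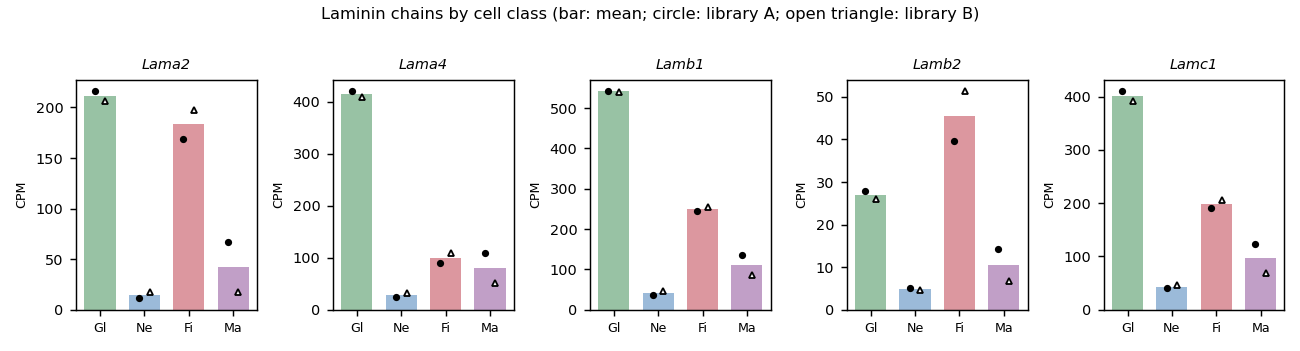
CPM (vertical axes, each from 0) of the 5 laminin chains that reached 20 CPM, in glia (Gl), neurons (Ne), fibroblasts (Fi) and macrophages (Ma). Bars are means of the libraries, circles library A and open triangles library B. By CPM, glia are the highest class for Lama2, Lama4, Lamb1 and Lamc1, fibroblasts for Lamb2.

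Promoter sequence is shown for 4 of the genes whose level in glia the text turns on: Lama2 and Lamb1, chains of laminin-211, and the integrin genes Itga4 and Itgb8. Each line gives the 300 bases from 250 before to 50 after the start that RefSeq annotates on build GRCm38.p6, read 5′ to 3′ on the gene's strand. Capitals mark a GC box, searched as GGGCGG on both strands (CCGCCC on the other strand). The windows lie at chr10:27616893-27617192 on the minus strand for Lama2, chr12:31265043-31265342 on the plus strand for Lamb1, chr2:79255176-79255475 on the plus strand for Itga4 and chr12:119238227-119238526 on the minus strand for Itgb8. In GENCODE M21, Lama2 and Itgb8 start further upstream, at chr10:27619758 and chr12:119238802, so by that annotation these 2 windows lie inside the gene.
Lama2: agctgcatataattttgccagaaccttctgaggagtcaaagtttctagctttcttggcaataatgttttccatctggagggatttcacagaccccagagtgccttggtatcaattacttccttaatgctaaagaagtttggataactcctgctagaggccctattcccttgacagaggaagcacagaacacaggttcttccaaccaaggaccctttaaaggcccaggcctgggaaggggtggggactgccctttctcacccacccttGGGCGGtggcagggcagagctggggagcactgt
Lamb1: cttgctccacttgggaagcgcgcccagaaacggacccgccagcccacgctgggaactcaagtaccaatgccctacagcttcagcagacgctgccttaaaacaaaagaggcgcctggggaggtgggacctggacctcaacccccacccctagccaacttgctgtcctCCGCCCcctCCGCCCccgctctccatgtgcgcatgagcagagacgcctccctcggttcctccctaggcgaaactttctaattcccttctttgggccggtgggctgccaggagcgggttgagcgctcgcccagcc
Itga4: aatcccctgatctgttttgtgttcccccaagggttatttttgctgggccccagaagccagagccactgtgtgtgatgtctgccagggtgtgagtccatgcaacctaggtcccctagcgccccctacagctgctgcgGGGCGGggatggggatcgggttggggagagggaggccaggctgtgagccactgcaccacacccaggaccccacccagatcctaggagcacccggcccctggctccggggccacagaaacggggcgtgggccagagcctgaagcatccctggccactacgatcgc
Itgb8: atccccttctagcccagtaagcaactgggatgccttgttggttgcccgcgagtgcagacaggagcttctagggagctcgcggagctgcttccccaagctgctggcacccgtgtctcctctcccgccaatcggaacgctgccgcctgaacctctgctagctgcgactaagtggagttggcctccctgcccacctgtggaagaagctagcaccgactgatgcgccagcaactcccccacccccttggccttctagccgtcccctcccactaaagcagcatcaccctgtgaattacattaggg

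Lama2, Lamb1 and Itga4 hold 1, 2 and 1 GC boxes, and Itgb8 holds none in this window. RefSeq windows were matched for 23 of the 37 genes (26 windows, since 3 genes have 2), and 11 of these 23 genes held a GC box in at least 1 window, against 35.7% of all 32851 mouse promoter windows. An AP-1 motif (TGANTCA) was found in 3 of the 23 genes, against 7.81% of all windows, and a SOX core (ACAAAG or CTTTGT) in 2, against 18.7%. The E-box CACGTG was found in 0 of the 23 genes and TATAAA, searched on both strands, also in 0, against 7.15% and 13.6% of all windows. These are matches of letters in windows that differ in number per gene, and they say nothing of which factor binds.

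Among integrins, glia expressed subunits of laminin, collagen and RGD receptors. Itgb8, which pairs with Itgav to activate latent TGF-beta, was at 618 and 626 CPM in A and B in glia, against 126 and 96.3 in macrophages, 49.8 and 53.6 in neurons and 43.9 and 56.8 in fibroblasts. Its log2 fold change against the mean of the other classes was 2.80 ± 0.06 (adjusted p = 3.97e-77, edgeR), the largest rise of any laminin or integrin gene in glia under this test. Itgav itself was at 151 and 142 CPM in glia, against 76.1 and 62.7 in macrophages, 48.1 and 42.4 in fibroblasts and 18.2 and 19.3 in neurons. The other beta partners of Itgav were spread over classes. Itgb3 was at 17.8 and 16.8 CPM in glia, against 18.2 and 12.3 in fibroblasts, where the libraries overlapped those of glia, 2.38 and 4.48 in macrophages and 3.01 and 2.63 in neurons. Itgb5 was highest in macrophages, at 188 and 146 CPM, against 59.4 and 61.7 in fibroblasts, 32.5 and 31.9 in glia and 4.82 and 6.90 in neurons. Itgb6, a beta subunit of epithelia, had 3 UMIs in all cells.

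The laminin receptor subunits Itga6 and Itgb4, which form the hemidesmosomal integrin and are also known from Schwann cells, were both highest in glia. Itga6 was at 303 and 303 CPM in A and B in glia, against 145 and 139 in macrophages, 32.2 and 39.7 in neurons and 29.0 and 32.1 in fibroblasts. Itgb4 was at 64.8 and 67.7 CPM in glia, against 28.5 and 6.72 in macrophages, 5.14 and 7.41 in fibroblasts and 4.48 and 6.24 in neurons. No library of another class reached glia for either gene. Their log2 fold changes in glia were 2.06 ± 0.06 (adjusted p = 2.66e-60) and 2.55 ± 0.12 (adjusted p = 3.74e-40, edgeR). Itgb1, the partner of most alpha subunits here, was abundant in every class, at 684 and 697 CPM in glia, against 467 and 458 in fibroblasts, 335 and 352 in macrophages and 284 and 316 in neurons, a span of 2.30 times between the highest and the lowest class.

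Itga1 and Itga2, both receptors for collagens and laminins with Itgb1, lie next to each other on chromosome 13 (chr13:114833081-114932100 for Itga2 and chr13:114953096-115101964 for Itga1, mm10, both on the minus strand), and both were highest in glia. Itga1 was at 144 and 144 CPM in A and B in glia, against 59.8 and 49.0 in fibroblasts, 33.3 and 8.96 in macrophages and 16.3 and 17.3 in neurons. Itga2 was at 62.3 and 62.2 CPM in glia, against 26.1 and 17.9 in macrophages, 5.17 and 7.01 in neurons and 5.14 and 3.70 in fibroblasts. After glia, Itga1 was highest in fibroblasts and Itga2 in macrophages.

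Itga4, whose product pairs with Itgb1 or Itgb7 and binds VCAM-1 and fibronectin, was at 32.1 and 32.6 CPM in A and B in glia, against 26.1 and 29.1 in macrophages, 4.91 and 4.49 in neurons and 0.935 and 2.06 in fibroblasts. In CPM, glia were 1.17 times above macrophages without overlap between their libraries, but the macrophage values rest on 11 and 13 UMIs. Both classes passed as higher than the mean of the others, with log2 fold changes of 2.02 ± 0.16 in glia (adjusted p = 1.27e-22) and 2.33 ± 0.41 in macrophages (adjusted p = 1.96e-06, edgeR). With the scaling of these tests the larger value was that of macrophages, so the order of glia and macrophages is not settled (no test was run between them). The other partner of Itga4, Itgb7, had 3 UMIs in glia, 0 in macrophages, 2 in fibroblasts and 40 in neurons. Those of neurons stand for 1.93 CPM over both libraries, under the 3.46 CPM of 3 counts in macrophages, so these 2 classes cannot be ordered.

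Itga7, which forms a laminin receptor with Itgb1, was the only one of the 20 genes whose highest class mean was in neurons. It was at 109.5 and 117 CPM in A and B in neurons, against 115 and 111 in glia, 35.7 and 17.9 in macrophages and 5.61 and 9.87 in fibroblasts, and the libraries of neurons and glia overlapped. It passed as higher in both, with a log2 fold change against the mean of the other classes of 2.12 ± 0.11 in neurons (adjusted p = 3.81e-38) and 1.54 ± 0.11 in glia (adjusted p = 3.04e-25, edgeR). With the scaling of these tests neurons thus stood above glia, though no test was run between these classes. Itga3, the alpha subunit of another laminin receptor, was at 24.0 and 18.5 CPM in neurons, where it just missed 20 CPM in B. Neurons held 448 UMIs of Itga3, against 28 in glia, 2 in fibroblasts and 0 in macrophages, and with 0 counts in macrophages their level was at least 6.24-fold higher than there (floor of 3 counts over both libraries). In glia it was at 0.543 CPM on the mean of the libraries.

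Fibroblasts held the highest level of Itga5, the alpha subunit of the classical fibronectin receptor. It was at 37.9 and 35.8 CPM in A and B in fibroblasts, against 11.9 and 31.4 in macrophages, 4.91 and 6.24 in neurons and 3.35 and 3.92 in glia, with a log2 fold change of 2.39 ± 0.18 (adjusted p = 9.25e-24, edgeR). Among low genes, Itga8, whose product binds nephronectin, had 38 UMIs in fibroblasts and 0 in macrophages, at least 2.40-fold higher, and was at 7.48 and 9.05 CPM in fibroblasts against 1.97 and 2.28 in glia. Itga10, a collagen receptor subunit, had 16 of 29 UMIs in fibroblasts. Itga2b, best known from platelets, was at 6.08 and 3.70 CPM in fibroblasts, against 1.46 and 1.37 in glia.

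Itgam and its partner Itgb2 were highest in macrophages. Itgam (CD11b), the alpha subunit of complement receptor 3, was at 30.9 and 58.2 CPM in A and B, from 39 UMIs, against 0 UMIs in glia and in fibroblasts, so that its level was at least 775-fold higher than in glia and at least 68.5-fold higher than in fibroblasts. Neurons held 4 UMIs of it, 0.0861 and 0.329 CPM. Its partner Itgb2 (CD18) was at 87.9 and 128 CPM in macrophages, against 0.468 and 0.823 in fibroblasts, 0.258 and 0.767 in neurons and 0.0788 and 0.190 in glia. Itgal (LFA-1) and Itgax (CD11c) share this partner and lie with Itgam and Itgad between chr7:127296260 and chr7:128223816 (mm10). Itgal had 1 UMI in macrophages and 11 in neurons, 10 of these in B, which stand for means of 1.19 CPM in macrophages and 0.591 in neurons. Itgax had 8 of its 9 UMIs in macrophages. Itga9, a receptor subunit for tenascin C, was at 28.5 and 22.4 CPM in macrophages, against 11.7 and 10.3 in fibroblasts, 3.1 and 2.63 in neurons and 2.40 and 3.04 in glia. The log2 fold changes in macrophages were 3.06 ± 0.18 for Itgb5 (adjusted p = 1.51e-32) and 2.68 ± 0.45 for Itga9 (adjusted p = 3.56e-07, edgeR).

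**Figure D2:**
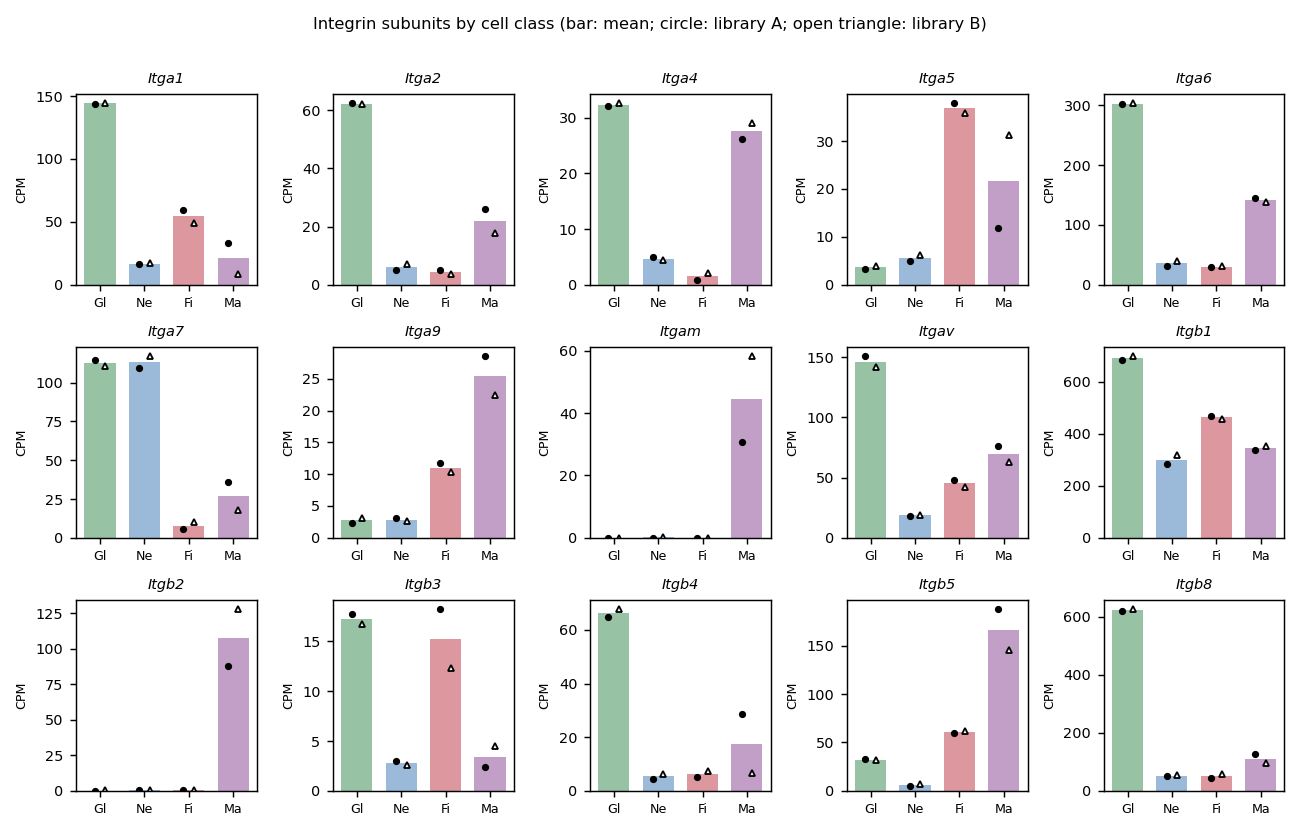
CPM (vertical axes, each from 0) of the 15 integrin subunits that reached 20 CPM, in glia (Gl), neurons (Ne), fibroblasts (Fi) and macrophages (Ma). Bars are means of the libraries, circles library A and open triangles library B. In CPM, Itga7 is level between neurons and glia, and Itgam and Itgb2 have visible bars only in macrophages.

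Glial transcripts were also counted in the other classes, and the levels of the glia markers there were set beside those of the laminin and integrin genes. The 9 glia markers summed to 12.1% of their level in glia in neurons, 6.89% in fibroblasts and 21.2% in macrophages, where library A had 27.5% and B 15.0%. S100b, which sensory neurons also express, stood at 95.6% in neurons and 27.3% in fibroblasts, and it was left out of the range in every class after these values were seen. The other 8 markers ranged from 7.06% (Gpm6b) to 14.6% (Cnp) in neurons and from 3.02% (Erbb3) to 12.4% (Gpm6b) in fibroblasts.

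Most of the laminin and integrin genes compared lay within or below the range of the glia markers in neurons. The comparison took those of the 20 genes above 20 CPM that had over 20 UMIs in glia in both libraries, which gave 18. Of these 18, 11 were at or below the highest glia marker in neurons, among them Lama2 at 6.88%, Lamb1 at 7.68%, Itgb8 at 8.30% and Itga4 at 14.5% of their level in glia. Itgb1 at 43.5% and Itga7 at 101% were above it, as were Itgb3 at 16.3%, Lamb2 at 18.1%, Itgb5 at 18.2% and the low genes Itga9 and Itga5, at 108% and 153%. In fibroblasts, 6 of 18 were at or below the highest marker, namely Itga2, Itga4, Itga6, Itga7, Itgb4 and Itgb8, while Lama4 at 24.0%, Lamb1 at 46.1%, Lamc1 at 49.5% and Lama2 at 86.9% were above it. Lama4, but not the other chains named, would lie below the highest marker with S100b kept. In macrophages, Lama2, Lama4, Lamb1, Lamc1 and Itgb8 were at 19.7%, 19.3%, 20.6%, 23.9% and 17.9% of their level in glia, set beside 21.2% for the marker sum, and each of these was higher in A than in B, as the marker sum was. Itga4 at 85.5%, Itgb1 at 49.7%, Itgav at 47.3% and Itga6 at 46.9% were above the marker sum in both libraries. The part of glial transcripts in the low levels was not tested.

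**Figure D3:**
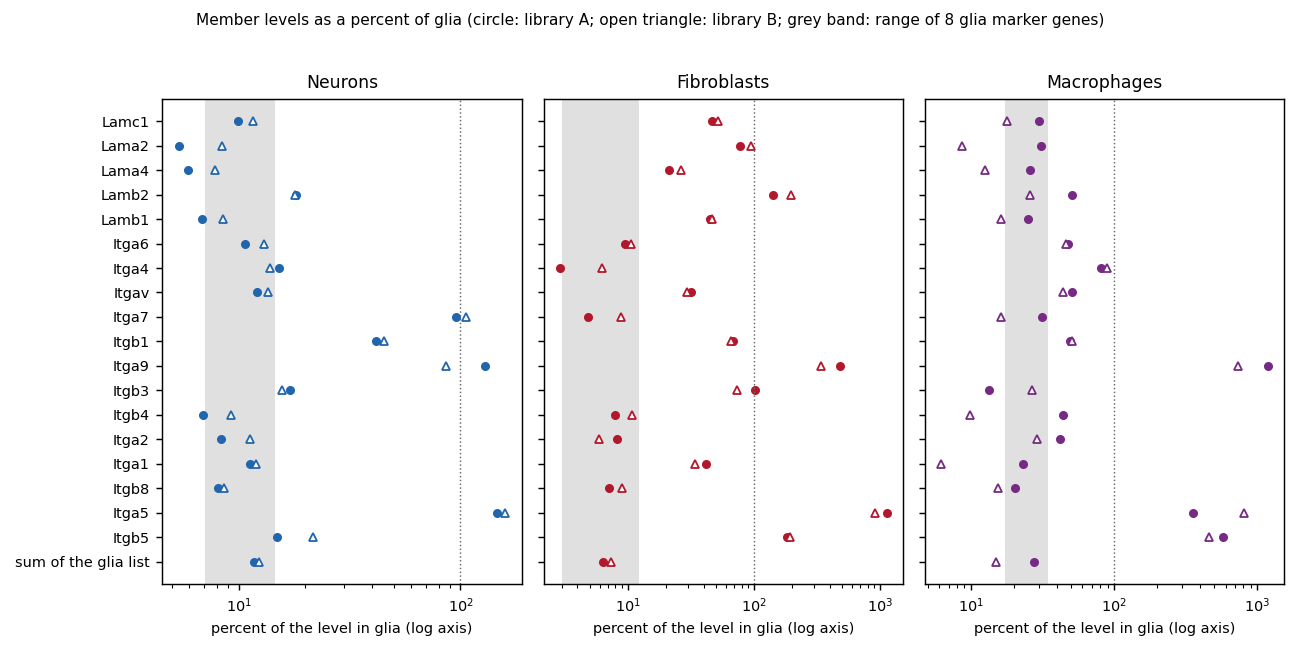
Level of each gene in neurons, fibroblasts and macrophages as a percent of its level in glia (horizontal log axis, dotted line at 100%). Shown are the 18 genes that reached 20 CPM and had over 20 UMIs in glia in both libraries, and the sum of 9 glia markers. Circles are library A, open triangles library B, and the grey band spans the means of 8 glia markers, without S100b. The laminin chains lie within or near the band in neurons and macrophages and beyond it in fibroblasts.

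The counts that follow are over the 30 laminin and integrin genes that passed the filter on low counts, which includes genes that passed through 1 class only. Such genes are high in that class, so the counts of higher genes and the medians are partly set by the filter. The same filter was used for all tested genes. In glia 16 of the 30 were higher and 5 lower than in the mean of the other classes, where 55.0% of all 11797 tested genes were called (28.6% higher, 26.3% lower). The median log2 fold change of the 30 was 0.89, against -0.01 for all tested genes. In neurons 5 were higher and 19 lower (median -1.50 against 0.21), with 69.5% of all genes called (41.9% higher, 27.6% lower). Fibroblasts had 15 higher and 6 lower (median 0.83 against -0.01), with 41.2% called (23.5% higher, 17.7% lower). Macrophages had 10 higher and 4 lower (median -0.24 against -0.15), with 21.0% called (11.8% higher, 9.21% lower). All 5 of the laminin chains above 20 CPM passed as lower in neurons. Under DESeq2, the genes lower in glia numbered 11 and those lower in macrophages 2.

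Within the glia, the repair-like cluster held less of the laminin chains than the satellite-like cluster. Of the 20 laminin and integrin genes tested among glial clusters, 11 fell and 6 rose, where 33.1% of all 10077 tested genes were called (15.1% lower, 18.1% higher). Of the 6 laminin chains tested, 5 fell and Lama5 did not pass, and their median log2 fold change was -0.78, against 0.03 over all tested genes. The 14 integrin subunits divided evenly, with 6 up and 6 down and a median of -0.09, where the 6 up include Itga8, a low gene described below.

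Lamc1 had 227 and 233 CPM in A and B in the repair-like cluster, against 516 and 501 in the satellite-like cluster. Lama2 had 121 and 126 CPM in the repair-like cluster, against 268 and 269 in the satellite-like cluster. The repair-like libraries lay below both satellite-like libraries for either chain, and their log2 fold changes were -1.06 ± 0.04 (adjusted p = 9.46e-77) and -1.03 ± 0.05 (adjusted p = 1.07e-54, edgeR). Lamb1 had 348 and 379 CPM in the repair-like cluster, against 635 and 624 in the satellite-like one (log2 fold change -0.71 ± 0.04), and Lama4 had 282 and 313 against 496 and 496 (log2 fold change -0.65 ± 0.04). Lamb2 also fell, by 0.85 ± 0.14, while Lama5, at 10.3 and 9.16 CPM in the repair-like cluster and 6.59 and 8.21 in the satellite-like cluster, did not pass (adjusted p = 0.0896). The fall was seen in each library alone for the 5 chains.

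Of the integrin subunits, 6 fell as well. Itga4 had 15.6 and 15.4 CPM in A and B in the repair-like cluster, against 38.5 and 35.2 in the satellite-like cluster (log2 fold change -1.17 ± 0.13, adjusted p = 1.78e-15, edgeR). Itga1 had 70.4 and 92.3 CPM in the repair-like cluster, against 163 and 154 in the satellite-like cluster (log2 fold change -0.86 ± 0.06, adjusted p = 3.25e-31). The libraries of these clusters did not overlap for either gene. Itgb3, known with Itgav as a vitronectin receptor, had 10.0 and 7.60 CPM against 23.3 and 22.7 (log2 fold change -1.31 ± 0.17), and Itga2, Itgav and Itgb5 fell by 0.66 ± 0.08, 0.65 ± 0.05 and 0.26 ± 0.11 on the log2 scale. The call for Itgb5 (adjusted p = 0.0479) was lost without the library block (adjusted p = 5.13e-02) and with DESeq2 (adjusted p = 3.80e-01).

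The other 6 called subunits were higher in the repair-like cluster. Itgb4 had 87.3 and 95.6 CPM in A and B in the repair-like cluster, against 70.4 and 68.0 in the satellite-like cluster (log2 fold change 0.49 ± 0.07, adjusted p = 7.34e-10, edgeR). Itga7 had 159 and 149 CPM in the repair-like cluster, against 129 and 127 in the satellite-like cluster (log2 fold change 0.34 ± 0.05, adjusted p = 1.50e-08). Itga6 had 335 and 322 CPM against 289 and 301, again without overlap (log2 fold change 0.24 ± 0.04). Itga8, also counted among the 6, was at 3.17 and 3.35 CPM in the repair-like cluster against 1.21 and 1.56 in the satellite-like one. This low gene passed the filter on low counts through the repair-like cluster, where it is high, so its call is not read as a result. The call was lost with DESeq2 (adjusted p = 2.05e-01). Itgb8 and Itgb1 passed with small rises of 0.15 ± 0.03 and 0.08 ± 0.03. For Itgb1 the CPM were 727 and 733 in the repair-like cluster against 727 and 729.6 in the satellite-like one, so that these levels overlapped before the scaling between clusters, and the log2 ratio of unscaled CPM was -0.0002 in A alone. The call for Itgb1 was lost with DESeq2 (adjusted p = 2.37e-01).

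**Figure D4:**
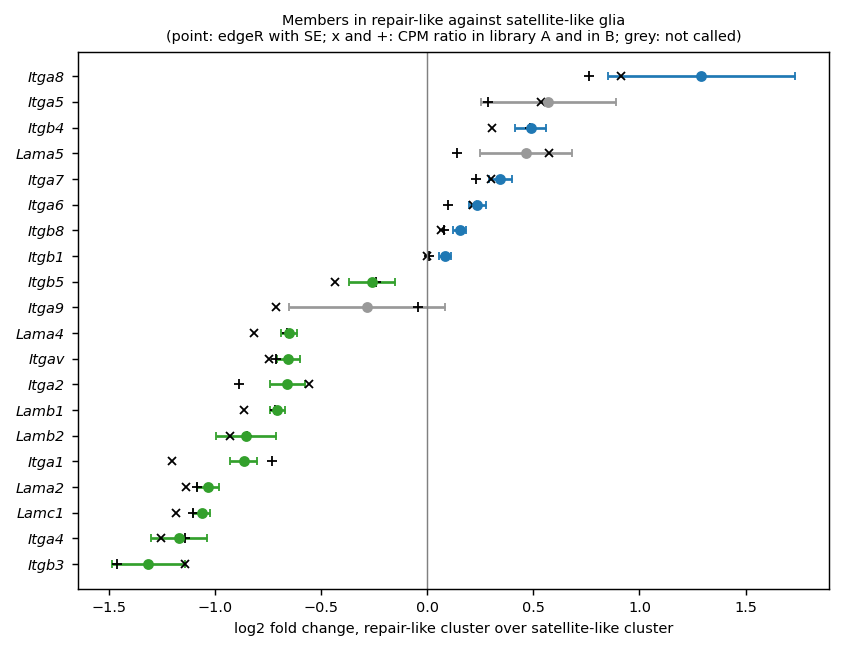
Log2 fold change (horizontal axis) of the 20 tested genes in the repair-like over the satellite-like glial cluster. Points are edgeR estimates with their SE, coloured where called and grey where not, and the x and + marks are the CPM ratios of A and of B alone. The 5 called laminin chains lie between -1.06 and -0.65.

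Marker lists of other cells and depth are given beside these differences. The satellite glia list summed to 2529 CPM in the repair-like cluster and 12222 in the satellite-like cluster, and the 9 glia markers to 5489 and 7357. The 8 fibroblast markers summed to 2484 CPM in the repair-like cluster and 1986 in the satellite-like cluster, with Dpt at 0 in both. The 8 macrophage markers summed to 10.1 CPM in the repair-like cluster and 7.03 in the satellite-like cluster, with Csf1r at 0 in both. The median cell had 3838 UMIs in the repair-like cluster and 4048 in the satellite-like cluster. Their part in the differences was not tested. At the finer glial resolution of 0.5, where other and smaller clusters carry these names, 13 of the genes were lower and 1 higher, and the falls were larger, at -2.54 for Lamc1 and -2.63 for Itga4. There the rises of Itga6, Itga8, Itgb1 and Itgb8 turned into log2 fold changes of -0.21, -0.29, -0.22 and -0.27, so that of the 6 rises only that of Itga7 was called at both resolutions.

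The other clusters set these values in context, each tested against the mean of the other 4. In cluster 2, 10 genes were lower and 7 higher (41.8% of all genes called, 21.1% higher and 20.7% lower), and Lama5 was among the higher ones, with a log2 fold change of 0.65 ± 0.20 (adjusted p = 0.0048, edgeR), which did not pass with DESeq2 (adjusted p = 1.10e-01). The 7 also include Itga8, which passed the filter on low counts through this cluster. In cluster 0, 13 were higher and 1 lower (46.1% of all genes called, 22.1% higher and 24.0% lower). Cluster 3, in DNA replication, had 7 genes higher (20.6% of all genes called, 11.8% higher and 8.86% lower), 5 of them laminin chains, and the other 13 did not pass. Of these chains, Lamb2 was lost with DESeq2 (adjusted p = 1.23e-01). Lama2 was at 275 and 289.8 CPM in A and B in cluster 3, the highest of the 5 clusters, with a log2 fold change of 0.58 ± 0.04 (adjusted p = 1.83e-27).

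Cluster 4, in mitosis, had 2 of the 20 genes higher (10.0%, under the 18.1% of all genes) and 7 lower (35.0%, against 13.8%), with 31.9% of all genes called. Both higher genes and 5 of the lower ones were integrin subunits, and 2 of the lower ones were laminin chains. Itga1 was at 172 and 186 CPM in A and B in cluster 4, against means of 81.3 to 158 CPM in the other clusters (log2 fold change 0.50 ± 0.06, adjusted p = 1.02e-15, edgeR). Itga4 was at 40.3 and 43.1 CPM, against means of 15.5 to 36.8 (log2 fold change 0.62 ± 0.11, adjusted p = 7.79e-07). For both genes cluster 4 was the highest cluster, with no overlap with cluster 0, the next. Itga7 was at 70.0 and 67.0 CPM, against means of 92.3 to 154 (log2 fold change -0.78 ± 0.07, adjusted p = 2.51e-20), and its 5 clusters did not overlap, in the order 2, 0, 3, 1, 4. Itgb8 was at 421 and 490.2 CPM, against means of 534 to 729 (log2 fold change -0.50 ± 0.03, adjusted p = 1.81e-34). With DESeq2 the genes lower in cluster 4 numbered 3. Cluster 1 had 4 genes higher and 6 lower (48.8% of all genes called, 25.3% higher and 23.5% lower), and Lamb2 showed the largest rise there, at 32.5 and 31.7 CPM in cluster 1 (log2 fold change 0.52 ± 0.08, adjusted p = 1.64e-08).

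**Figure D5:**
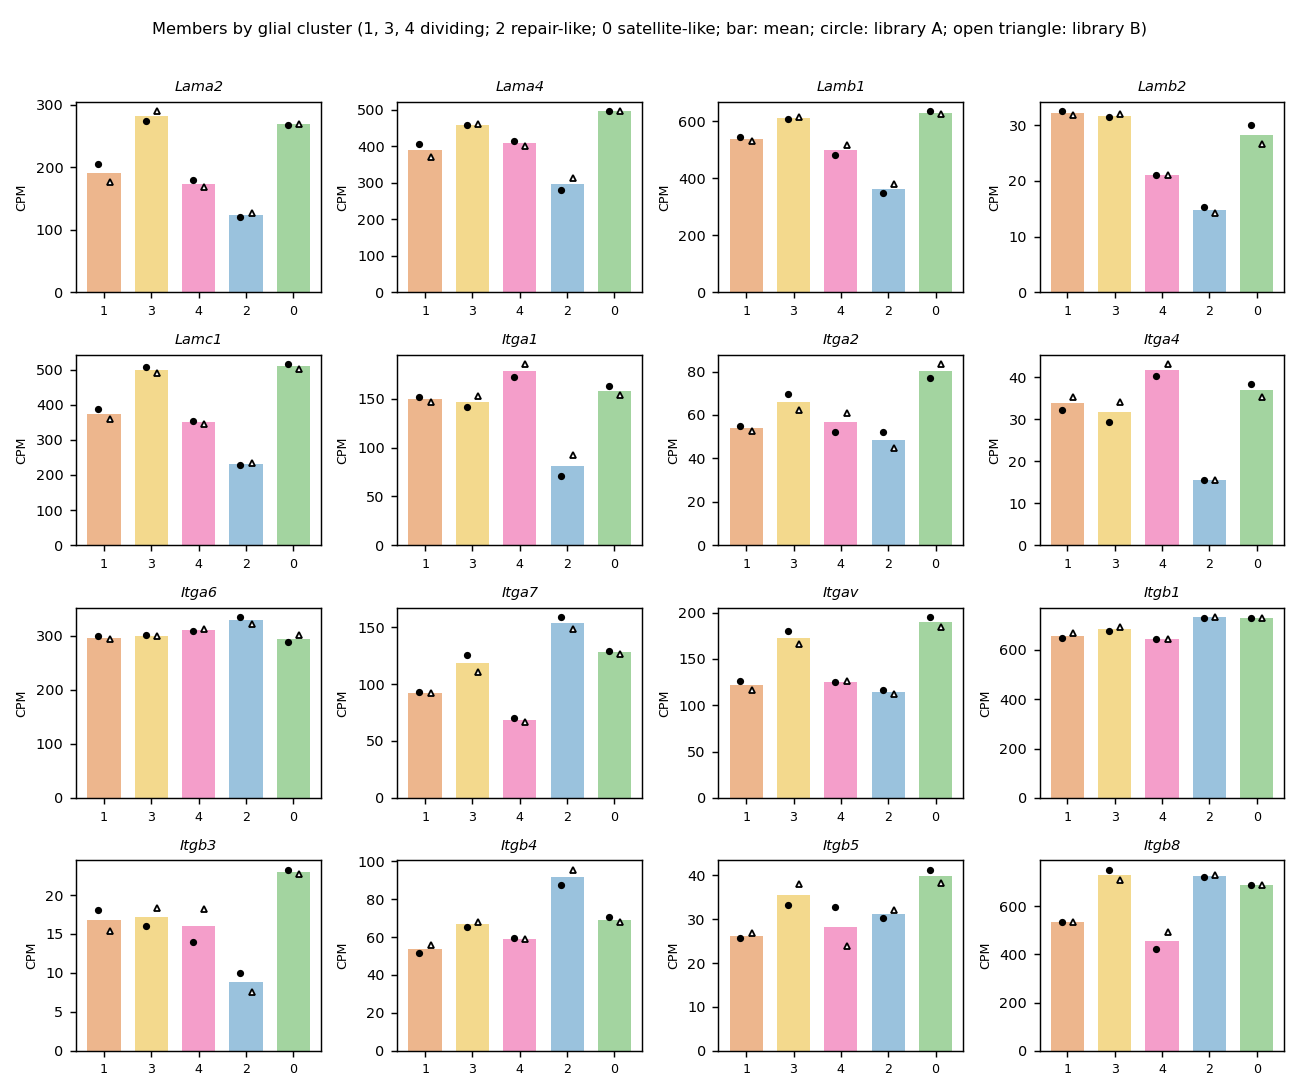
CPM (vertical axes, each from 0) in the glial clusters of the 16 genes that reached 20 CPM there, with the dividing clusters 1, 3 and 4 first, then the repair-like cluster 2 and the satellite-like cluster 0. Bars are means of the libraries, circles library A and open triangles library B. The repair-like bar is the lowest for all 5 laminin chains and the highest for Itga6, Itga7 and Itgb4.

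Taking the 3 dividing clusters together against the 2 non-dividing ones, each cluster with the same weight, 7 of the 20 genes were higher and 6 lower, where 49.3% of all 10077 genes were called (25.0% higher, 24.3% lower). Their median log2 fold change was -0.06, against -0.01 for all genes. Itga4 rose by 0.59 ± 0.09 and Itga1 by 0.49 ± 0.04 (adjusted p = 2.90e-10 and 6.03e-25, edgeR), and Itga7 fell by 0.60 ± 0.04, Itgb4 by 0.40 ± 0.05 and Itgb8 by 0.30 ± 0.02 (adjusted p = 7.53e-33, 1.39e-11 and 6.85e-32). For each of these the values of the single libraries had the sign of the fit, and the call held with pooled cells. The clusters on either side were not alike, however. The satellite-like cluster 0, at means of 36.8 CPM of Itga4 and 158 of Itga1, lay above the dividing clusters 1 and 3, at 33.7 and 31.7 CPM of Itga4 and 149 and 147 of Itga1, while the repair-like cluster was the lowest. Itgb8 had its highest mean in the dividing cluster 3. Of the 6 laminin chains tested, 5 passed as higher in this contrast. Lama5 passed as lower, a call lost with DESeq2 (log2 fold change -0.49, adjusted p = 1.42e-01). The rises were 0.26 ± 0.03 for Lamc1, 0.23 ± 0.04 for Lama2 and 0.14 ± 0.03 for Lama4, and Lamb1 and Lamb2 rose as well. For Lamc1 and Lama4, however, the non-dividing side averages the highest and the lowest of the clusters. With the cells pooled into a dividing and a non-dividing sum per library, the values of Lamc1, Lama2 and Lama4 were 0.01, -0.02 and -0.01. None of these passed, while the calls of Lamb1 and Lamb2 held. The call of Lamb2 was lost with at most 5% mitochondrial UMIs, and that of Lamb1 with the laminin and integrin genes allowed among the clustering genes.

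For shares of single cells, every cell was thinned to 2000 UMIs and shallower cells were dropped, which left 9262 glia, 769 neurons, 388 fibroblasts and 82 macrophages. Itgb8 was found in 67.1 ± 0.522% of glia (SD over the libraries, n = 2), against 8.35 ± 2.00% of fibroblasts, and Itga6 in 44.5 ± 0.155% of glia, against 4.29 ± 1.17% of fibroblasts. Lamb1 was found in 63.3 ± 0.0724% of glia and 10.9 ± 0.0823% of neurons. Itga4, by contrast, was found in 6.05 ± 0.0926% of glia, 12.3 ± 1.70% of macrophages and 0.698 ± 0.987% of fibroblasts, so that at this depth most glia showed no UMI of it. Within the glia its share was 8.66 ± 0.215% in cluster 4, 3.77 ± 0.251% in the repair-like cluster and 7.21 ± 0.269% in the satellite-like cluster. Without thinning, when the median glial cell had 4723 UMIs, the share of glia with Itga4 was 14.6% and that of fibroblasts, at a median of 11494 UMIs, 1.43%.

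Laminin chains were found in the same thinned glial cells somewhat more often than the product of their shares, whether or not they belong to one laminin. Lama2 and Lama4, alpha chains of different laminins, were both present in 19.8% of the cells, against a product of 18.4% (1.08 times), and Lamb1 and Lamc1 in 35.7%, against 32.9% (1.09 times). Of 3 genes at once, Lama2, Lamb1 and Lamc1, the chains of laminin-211, were all present in 14.5% of the cells, against a product of 11.1%. Lama4, Lamb1 and Lamc1, the chains of laminin-411, were present in 21.0%, against 17.9%. The integrin pairs gave 34.1% against 33.6% for Itga6 with Itgb1, 16.9% against 16.8% for Itgav with Itgb8 and 6.37% against 5.91% for Itga6 with Itgb4 (1.08 times, as for Lama2 with Lama4). All glial clusters were pooled here, and clusters that differ in level share cells of the same library, so these are descriptions without a test.

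Genes that work with laminins and integrins were taken from lists by function. Those named below were picked for the largest folds among genes of their list that passed, so they mark its extremes. Of 19 basement membrane partners, 16 were tested between classes, and 12 were higher in glia while 4 did not pass, where 28.6% of all tested genes were higher. Fibroblasts also had 12 of 16 higher, with a median log2 fold change of 1.54 in glia and 2.24 in fibroblasts. Agrn, a heparan sulphate proteoglycan that binds laminin, was at 78.6 and 75.2 CPM in A and B in glia, against 16.9 and 14.5 in the mean of the other classes. Of 22 other laminin receptors, 15 of 20 tested were higher in glia and 3 lower, with Adgrg6, an adhesion receptor that Schwann cells need for myelination, at 137 and 136 CPM in glia against 21.8 and 14.6, and Dmd, the gene of dystrophin, at 240.4 and 237 against 29.2 and 27.8. Integrin adaptors and signalling genes moved both ways, with 20 of 32 tested higher and 11 lower in glia, against 28.6% and 26.3% of all genes. Among them Fermt2, an activator of integrins, was at 418 and 419.8 CPM in glia against 135 and 130.3, while its blood cell homologue Fermt3 was at 0.197 and 0.114 against 34.4 and 32.4. Of the integrin ligands other than laminins, 10 of 27 tested were higher and 8 lower in glia, with Postn, which codes for periostin, at 1101 and 1071 CPM in glia against 131 and 90.2.

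The same lists differed between the repair-like and the satellite-like cluster. Of 15 basement membrane partners tested, 9 were lower and 2 higher in the repair-like cluster, where 15.1% of all tested genes were lower and 18.1% higher, with a median log2 fold change of -0.41. Col4a1, a chain of the collagen IV network, was at 375 and 406 CPM in A and B in the repair-like cluster, against 1093 and 1091 in the satellite-like cluster, and Frem2 at 4.75 and 4.47 against 32.6 and 32.3. Col18a1, another basement membrane collagen, went the other way, at 793 and 760.3 CPM in the repair-like cluster against 394 and 402. Of 20 other laminin receptors tested, 11 were lower and 5 higher, of 29 adaptors 6 were lower and 10 higher, and of 23 other ligands 5 were lower and 12 higher. Thbs2, which codes for thrombospondin 2 and was among the leading genes of the repair-like cluster, was at 129 and 141 CPM there, against 9.42 and 10.0 in the satellite-like cluster, and Lims2, an adaptor of the integrin-linked kinase, at 47.7 and 41.3 against 12.2 and 12.2. In the dividing against the non-dividing clusters, where 25.0% of all tested genes were higher and 24.3% lower, the lists gave 5 higher and 6 lower of 15 basement membrane partners, 4 and 7 of 20 other laminin receptors, 7 and 9 of 29 adaptors, and 4 and 11 of 23 other ligands.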

How the data were processed

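Values are unscaled UMI counts for each gene in each barcode, as deposited by the authors. Per the methods and the submitters' processing notes, reads were mapped with Cell Ranger 3.0.2 to mm10 with an Ensembl annotation, while the deposited matrices name software version 3.1.0. The 3' kit counts transcript ends, so CPM depend on how each 3' end is annotated. Nothing but these counts was used, for 2 libraries of 1 condition.

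Cells with at least 200 genes and at most 10% mitochondrial UMIs were clustered with Seurat 5.3.0 (2000 variable genes by vst without the laminin, integrin and pathway genes, 20 dimensions, resolution 0.18), while the study's own clustering was made in Seurat 3. A cluster took the name of the marker list with the highest mean relative to the other clusters (at least 3 on the log2 CPM scale). At a set rate of 0.05, Scrublet in scanpy 1.11.5 marked 2 cells of A and 3 of B as doublets, under 0.5%, and was not used to remove cells. Counts were summed per library and group. edgeR 4.0.16 (R 4.3.3, TMM, filterByExpr, library as a block, quasi-likelihood test) compared each class or glial cluster with the mean of the others, the repair-like with the satellite-like cluster and dividing with non-dividing clusters. Genes used for clustering were left out of the tests, the Benjamini-Hochberg adjustment ran over all genes tested, and calls needed an adjusted p under 0.05. The library block pairs sums of the same library. The step was also run on simulated counts of a fixed spread and without clustering, which cannot show how drawing groups from the same cells affects the p-values. A gene was described with its values where it reached 20 CPM in both libraries in a class or glial cluster, others were named where they passed a test, and up to 2 genes a list and direction stand for the pathway lists. The 1000 CPM rule for dividing clusters was set with the data in hand, and the genes, lists and rules were all chosen with earlier results of these data known. Gene positions come from GENCODE M21 on GRCm38 (mm10), promoter windows from RefSeq. A CPM or a bound against 0 counts carries counting error only. Alternatives were DESeq2 1.42.0, its size factors in edgeR, no filter, no block, other limits on mitochondrial UMIs (5% and 20%), clustering choices, thinning depths of 1000 and 4000 UMIs, and leaving out each library. Values of some genes are not reported here. Figures were drawn with matplotlib 3.10.9.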

Additional observations from a re-analysis of the deposited data

How the results depend on the processing

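Each of 167 called log2 fold changes was recomputed under the alternatives that apply to it. Without replicate A all 167 kept their sign, and without replicate B 166 did, but a single library leaves no residual degrees of freedom, so counts of calls without a replicate could not be had. For Itgb1 in repair-like against satellite-like glia the values without a replicate, which are ratios of CPM with no further scaling, ranged from -0.0002 to 0.0065. The libraries differed little: without the replicate block 164 of 167 calls held, as did 166 with DESeq2's size factors, 161 with no filter on low counts, 164 with the clustering genes tested as well and 162 when the top 5% of Scrublet scores were left out. DESeq2 kept 145, and it gave 11 genes lower in glia, 2 lower in macrophages and 3 lower in glial cluster 4, in place of 5, 4 and 7. With at most 5% mitochondrial UMIs 2 genes were lower in macrophages. The change of scaling moved the median of all genes by at most 0.08 (log2).

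The glial contrasts depended on how the clusters were drawn. At resolution 0.5 the genes higher in repair-like against satellite-like glia numbered 1 in place of 6, and Itga8, Itga6, Itgb1 and Itgb8 reversed to -0.29, -0.21, -0.22 and -0.27, while the genes lower numbered between 10 and 13 over all alternatives. With the laminin and integrin genes allowed among the clustering genes, Itgb8 reversed there to -0.0091, and dividing against non-dividing glia gave 3 higher and 10 lower in place of 7 and 6, with Lamc1 at -0.0424, Lama2 at -0.2426 and Lama4 at -0.004. Pooling cells into 2 groups per library gave 4 higher, with Lama2 at -0.0167 and Lama4 at -0.006. Lama2 in this contrast was also -0.0711 with 30 dimensions, -0.0174 with variable genes by mean.var.plot and -0.0098 with at most 5% mitochondrial UMIs, where Itgb1 was 0.0031. The causes were not tested. At most 5% mitochondrial UMIs left 1 non-dividing cluster, so repair-like against satellite-like glia could not be compared. Macrophages are the shallowest class, with 867067 UMIs, where 3 counts over both libraries stand for 3.46 CPM.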

Other observations

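The 811 neurons fell into 6 clusters when clustered alone, and Itga7 and Itga3, the alpha subunits of laminin receptors found in neurons, differed between them. Itga7 was at 171 and 172 CPM in A and B in neuron cluster 0 (214 cells, led by Anxa1 and Sdc1) and 171 and 192 in cluster 1 (162 cells, led by Penk and Crh), against 123 and 114 in cluster 4 (123 cells, led by Tspan8, with Mrgpra3), 52.7 and 52.8 in cluster 2 (144 cells, led by Lyz2 and Spp1, with Lyz2 at 0.995 and 609.8 CPM in A and B) and 13.9 and 24.0 in cluster 3 (140 cells, led by S100b and Ngfr). Itga3 was at 45.5 and 35.8 CPM in cluster 4 and 35.8 and 24.0 in cluster 3, against 14.9 and 18.3 in cluster 2, 13.9 and 12.0 in cluster 0 and 5.81 and 5.0 in cluster 1. Clusters 3 and 4 thus lay above the others for Itga3 in both libraries, and cluster 3 lay below all others for Itga7. The 28 cells of cluster 5, led by Mgp, Spp1 and Apoe, went against the neuron name: their glia markers summed to 5846 CPM, against 5987 in glia, and Tubb3 was at 364 CPM, against 2458 in cluster 0. They held 598 and 559 CPM of Lamb1, close to the level in glia, and their median cell had 4852 UMIs against 31708 in cluster 0. These genes were named after their values were seen, and no test was run between neuron clusters.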
